A study of Mus musculus with 11 samples.

Results

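Cd4, Cd8a and Cd8b1 encode the co-receptors of the T cell receptor, and this account covers the proteins and histone marks found on chromatin around these 3 genes in a mouse T-cell leukaemia line. The members were chosen by name. Every factor peak and every histone segment that overlapped a gene span or the 50 kb on either side of it was taken, with Cd8a and Cd8b1 treated as 1 locus because their windows overlap. By that rule the loci held 123 of the 158769 regions in the 9 region lists, made up of 53 of 27054 factor peaks and 70 of 131715 histone segments.

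The study used chromatin immunoprecipitation and sequencing (ChIP-seq) in 8946, a murine T-cell acute lymphoblastic leukaemia line. Per the labels, the cells carried retroviral Zmiz1 with an epitope tag (marker NGFR) and activated Notch1 (marker GFP), and doubly positive cells were sorted. The line named Flag-Zmiz1/ L1601PDP, here the Flag line, gave input, Flag-Zmiz1, Rbpj, ICN1 and the histone marks H3K4me3, H3K4me1, H3K27ac and H3K27me3, and the line named HA-Zmiz1/ DEGFDLNRDP, here the HA line, gave input, ICN1 and HA-Zmiz1. Each of the 11 samples was the only one of its kind, so the study had no replicates, and the spread that repeats of a library would show is unknown for every difference below. Both lines carried a tagged Zmiz1 and an activated Notch1, and no library without them was analysed here. Reads were pooled in the HA line, per the file headers, and how many precipitations they came from is not given in the sources used here. The tag, the Notch1 construct, the antibody against Zmiz1 and the input differed together between the lines, and their parts in any difference cannot be told apart. Rbpj and the histone marks were profiled in the Flag line and the HA-Zmiz1 peaks come from the HA line, so an overlap between them is one of positions in different sorted populations.

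The co-receptor CD4 binds class II and CD8 class I molecules of the major histocompatibility complex, and both bring the kinase Lck to the T cell receptor. Cd4 encodes a single chain, while Cd8a and Cd8b1 encode the alpha and beta chains of CD8. Thymocytes express neither co-receptor at first, then both, then 1 of them, and the genes are known for T-lineage enhancers and, at Cd4, an intronic silencer. Notch1 acts through its cleaved intracellular form, ICN1, which joins the DNA-binding protein Rbpj. Zmiz1 is a PIAS-like coactivator, and the series compared its positions with those of ICN1 and Rbpj. H3K4me1 is usual at enhancers, H3K4me3 at active transcription starts, H3K27ac at active starts and enhancers, and H3K27me3 at repressed developmental genes.

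All 3 genes lie on chromosome 6 (RefSeq positions, GRCm38.p6, the same build as mm10). Cd4 (gene ID 12504) runs from 124864693 to 124888247. Mouse Cd4 is known to be transcribed toward lower coordinates, from its higher end, though the gene table used here gives no strand. Cd8b1 (12526) runs from 71322788 to 71337492 and Cd8a (12525) from 71373427 to 71379171, with 35.9 kb between them. The Cd4 window spans 124 kb and the Cd8 window 156 kb, and the loci lie 53.5 Mb apart. The gene table gives no exons, so exon, intron and untranslated-region positions are not stated for any peak. The known enhancers and the silencer were not mapped here, and no peak is named as one of them.

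Of the 3 genes, Cd8a had an entry in the RefSeq promoter table (GRCm38.p6). The 250 bases before its start are printed because an Rbpj peak and an HA-Zmiz1 peak, described below, lay across this start. They read 5′ to 3′ on the plus strand from chr6:71373177-71373426, and the capitals mark TTCCCA, which is the Rbpj core TGGGAA read on the other strand:

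Cd8a promoter: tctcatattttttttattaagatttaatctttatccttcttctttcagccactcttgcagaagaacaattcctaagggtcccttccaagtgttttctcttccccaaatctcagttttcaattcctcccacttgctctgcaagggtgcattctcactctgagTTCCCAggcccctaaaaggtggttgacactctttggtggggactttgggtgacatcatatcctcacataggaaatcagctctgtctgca

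The depth of the factor libraries was 13.5 to 19.0 M filtered tags, and the inputs held 36.4 M (Flag line) and 26.8 M (HA line). The lists held 581 Flag-Zmiz1, 4984 HA-Zmiz1 and 20993 Rbpj peaks, with 82 ICN1 peaks in the Flag line and 414 in the HA line. How many reads each histone library held in all is unknown. The labelled cell type showed its marks at these genes and others: H3K4me3 covered an end of all 3 members and of 12 of 12 T-lineage marker genes, against 1 of 6 B-lineage genes (Ebf1), 1 of 6 myeloid genes (Itgam) and 0 of 4 erythroid genes. Over all 21887 coding genes the share was 46.6%. The H3K27 libraries went against their labels. Among the 10192 genes with H3K4me3 over an end, the library labelled H3K27me3 covered 8979 (88.1%) and the library labelled H3K27ac 1296 (12.7%). At 39 Hox genes, which are developmental genes, the order was the opposite, with 0 under the library labelled H3K27me3 and 37 under the library labelled H3K27ac. The deposited table of the sample labelled H3K27me3 is named for H3K27ac, and that of the sample labelled H3K27ac for H3K27me3, so the table names and these values stand together against the sample labels. Each library is called by its sample label throughout, and no direction is drawn from that label.

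At Cd4 the HA-Zmiz1 library gave 5 peaks, the HA-line ICN1 library 1 and the Rbpj library 15. At Cd8 the counts were 13, 1 and 18, and with a −log10 p of at least 10 the 13 HA-Zmiz1 peaks were 8. All 3 members had an HA-Zmiz1 peak within 50 kb, against 27.8% of the 21887 coding genes, and an HA-line ICN1 peak, against 3.42%. Cd8a and Cd8b1 share their ICN1 peak, so the 3 members rest on 2 such peaks. This background was not limited to genes with H3K4me3, in which 93.2% of HA-Zmiz1 and 89.1% of HA-line ICN1 peaks lay. The members also had an Rbpj peak, which was the case for 67.2% of coding genes and so sets them little apart. The Flag-line libraries of Zmiz1 and ICN1 gave 0 peaks at either locus, where the shares over coding genes were 4.06% and 0.215%. The nearest Flag-Zmiz1 peak was 636 kb from Cd4 and 2995 kb from the Cd8 genes, and the nearest Flag-line ICN1 peak was farther still, at 21602 kb and 75111 kb. The Flag-line lists were short, at 581 Flag-Zmiz1 and 82 ICN1 peaks. Of these ICN1 peaks, 53 lay where recovered local input was 10 or more times the library mean (32 of 414 in the HA line). H3K4me3 segments met 9.29% of the Flag-Zmiz1 list and 93.2% of the HA-Zmiz1 list. The 0 counts and distances from these lists therefore say little about the loci.

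Zmiz1 at the co-receptor genes was thus read from 1 library, HA-Zmiz1. Its peaks were denser at Cd8, with 8.31 per 100 kb against 4.05 at Cd4, while the density of Rbpj was 11.5 and 12.1 per 100 kb. With 2 loci and 1 library no test of this difference was possible. Counted per gene, the HA-Zmiz1 peaks within 50 kb numbered 5 at Cd4, 9 at Cd8a and 11 at Cd8b1, the windows of the Cd8 genes sharing peaks. At least 5 peaks were found at 1.40% of coding genes, at least 9 at 0.0914% (20 genes, Cd8a included) and at least 11 at 0.0137%. The 3 genes of that last group were Cd8b1 itself and Clec16a and Nck2, each with 13. The 20 genes also included Cd3e, with 9 peaks and 8.11 per 100 kb of window, and Ikzf1 and Ikzf3. Several clustered histone genes of chromosome 13, whose windows overlap, were among them too, so the 20 are not independent places. Per 100 kb of window, Cd8b1 had the highest density of all coding genes, at 9.59, and Cd8a, at 8.51, was among the 10 highest. These ranks depended on the window. With 25 kb on either side, the genes with at least as many HA-Zmiz1 peaks numbered 25 for Cd8b1, 67 for Cd8a and 139 for Cd4, against 3, 20 and 307 with 50 kb. With 100 kb they numbered 7, 7 and 449, and with a −log10 p of at least 10 they numbered 3, 20 and 138.

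**Figure D1:**
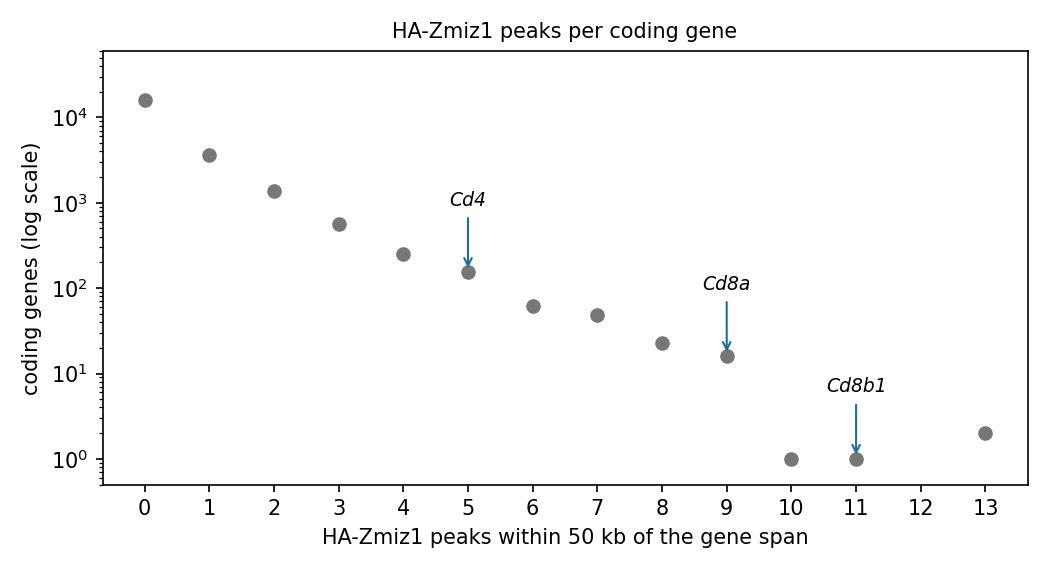
Number of coding genes (vertical axis, log scale) at each number of HA-Zmiz1 peaks within 50 kb of the gene span (horizontal axis); counts with no gene have no point. Cd4 stands at 5 peaks, Cd8a at 9 and Cd8b1 at 11, while most genes, 15793 of 21887, had 0.

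For Rbpj the counts per gene were 15 at Cd4, 13 at Cd8a and 15 at Cd8b1. As many or more were found at 0.667% of coding genes for Cd4, at 1.47% for Cd8a and at 0.667% for Cd8b1. By count, the order of the genes by Rbpj therefore did not follow that by HA-Zmiz1. Per 100 kb of window, Rbpj stood at 12.1 for Cd4, 12.3 for Cd8a and 13.1 for Cd8b1. That order was the same as for HA-Zmiz1, with smaller differences.

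The authors' fold over local input background describes how strong each peak was within its list. HA-Zmiz1 folds at Cd4 ran from 4.72 through a median of 7.86 to 15.5, and at Cd8 from 3.20 through 7.00 to 14.3, beside a median of 6.53 over the HA-Zmiz1 list. Rbpj folds ran from 3.43 through 7.78 to 13.8 at Cd4 and from 3.87 through 6.54 to 11.0 at Cd8, beside a list median of 6.47. Most peaks at both loci were thus of ordinary strength for their lists, and each locus had 1 HA-Zmiz1 peak well above its others. A best HA-Zmiz1 fold at least as high as that of Cd4 was found near 0.685% of coding genes, and at least as high as that of Cd8a and Cd8b1, which share the peak, near 0.937%. None of the 53 peaks lay where the recovered local input was 10 or more times the library mean.

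**Figure D2:**
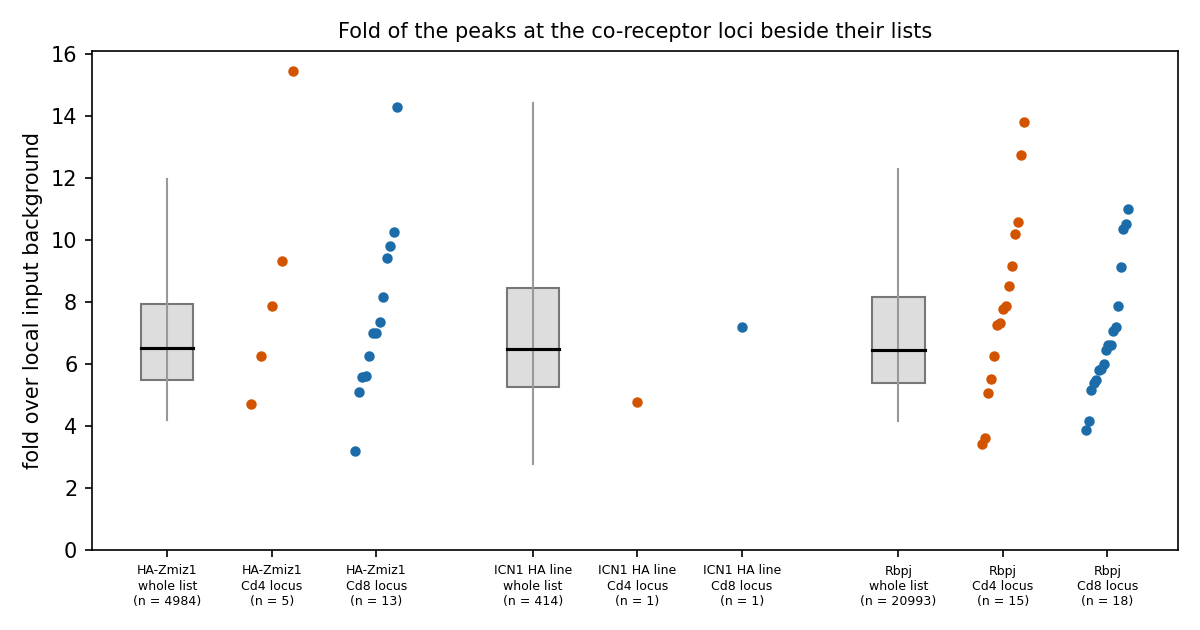
Fold over local input background (vertical axis) of each peak at the Cd4 locus (orange) and the Cd8 locus (blue), beside the whole list of the same library (box from the 25th to the 75th percentile with the median as a line, whiskers from the 5th to the 95th percentile). The highest HA-Zmiz1 peaks, 15.5 at Cd4 and 14.3 at Cd8, lie above the whiskers, and the ICN1 peaks of 4.79 and 7.19 lie within theirs.

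At each locus the strongest HA-Zmiz1 peak was also the site where ICN1 and Rbpj met it. Such a site, with peaks of HA-Zmiz1, HA-line ICN1 and Rbpj that overlap, was found within 50 kb of 2.28% of coding genes. Over the whole HA-line ICN1 list, 302 of 414 peaks (72.9%) overlapped HA-Zmiz1 and 400 (96.6%) overlapped Rbpj. Meeting either of these factors was thus usual for a listed ICN1 peak. At Cd4 the site covered 693 bp, from 124900384 to 124901076. The HA-Zmiz1 peak there had a fold of 15.5 with a pileup of 41 reads at its summit (exact Poisson 95% interval 29.4 to 55.6, counting error only). It ranked 70 of 4984 by fold, the measure behind every rank of a peak given here. Its summit, at 124900631, lay 12.4 kb above the higher end of Cd4, on the side where transcription starts, and 3.73 kb from Lag3, which encodes an inhibitory receptor related to CD4.

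ICN1 at this Cd4 site was weak, with a fold of 4.79 and a pileup of 11 (5.49 to 19.7), in the lower part of its list at rank 344 of 414. Its −log10 p was 7.15, and with a limit of 10 the ICN1 peak and the 3-factor site were no longer called. Rbpj was strong there, with a fold of 12.7, a pileup of 27 and rank 898 of 20993. The 3 summits fell within 49 bp of each other. Further HA-Zmiz1 peaks without Rbpj lay just beside the site, at 124899886 to 124899992 (fold 4.72) and at 124900192 to 124900307 (fold 9.33), so that 3 of the 5 HA-Zmiz1 peaks of the locus stood close together.

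The corresponding site at Cd8 covered 432 bp, from 71369347 to 71369778, in the stretch between Cd8b1 and Cd8a. HA-Zmiz1 had a fold of 14.3 and a pileup of 33 (22.7 to 46.3) there, which ranked 103 of 4984, with its summit 3.78 kb before the start of Cd8a. The ICN1 peak had a fold of 7.19 and a pileup of 15 (8.40 to 24.7), at rank 161 of 414. Its −log10 p of 12.4 kept it, and the site, under the limit of 10 that removed the Cd4 site. Rbpj had a fold of 10.3 and a pileup of 31. The 3 summits fell within 86 bp. The pileup intervals of the Cd4 and Cd8 sites overlapped for HA-Zmiz1 and for ICN1, and a difference between the sites was not detectable at this depth.

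Rbpj also marked Cd4 where no HA-Zmiz1 peak was listed. The strongest Rbpj peak of the Cd4 window lay inside the gene, from 124885229 to 124885465 and 2.90 kb from the higher end, with a fold of 13.8 and a pileup of 33 at rank 645 of 20993. A second Rbpj peak inside Cd4 had a fold of 7.33 and overlapped the only HA-Zmiz1 peak inside the gene, from 124879457 to 124879652, with a fold of 7.86. Of the remaining Rbpj peaks, 6 lay below Cd4 and 7 above it.

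The Cd4 window is crowded with other genes, and most peaks in it lay nearer to one of those. It holds parts or all of 8 other coding genes, Usp5, Cdca3, Gnb3, P3h3, Gpr162, Lag3, Ptms and Mlf2. Of the peaks at this locus, 4 of 5 HA-Zmiz1 peaks, 1 of 1 ICN1 peaks and 13 of 15 Rbpj peaks were nearer to another coding gene than to Cd4. The HA-Zmiz1 peak below Cd4 lay at 124863080 to 124863196 inside Gpr162, with a fold of 6.26, and an Rbpj peak of fold 5.06 overlapped it. Rbpj peaks of fold 10.6 and 8.50 lay by P3h3 and Gpr162, of 10.2 and 7.86 by Ptms and of 9.17 and 7.78 by Mlf2. Which gene a peak acts on was not tested.

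**Figure D3:**
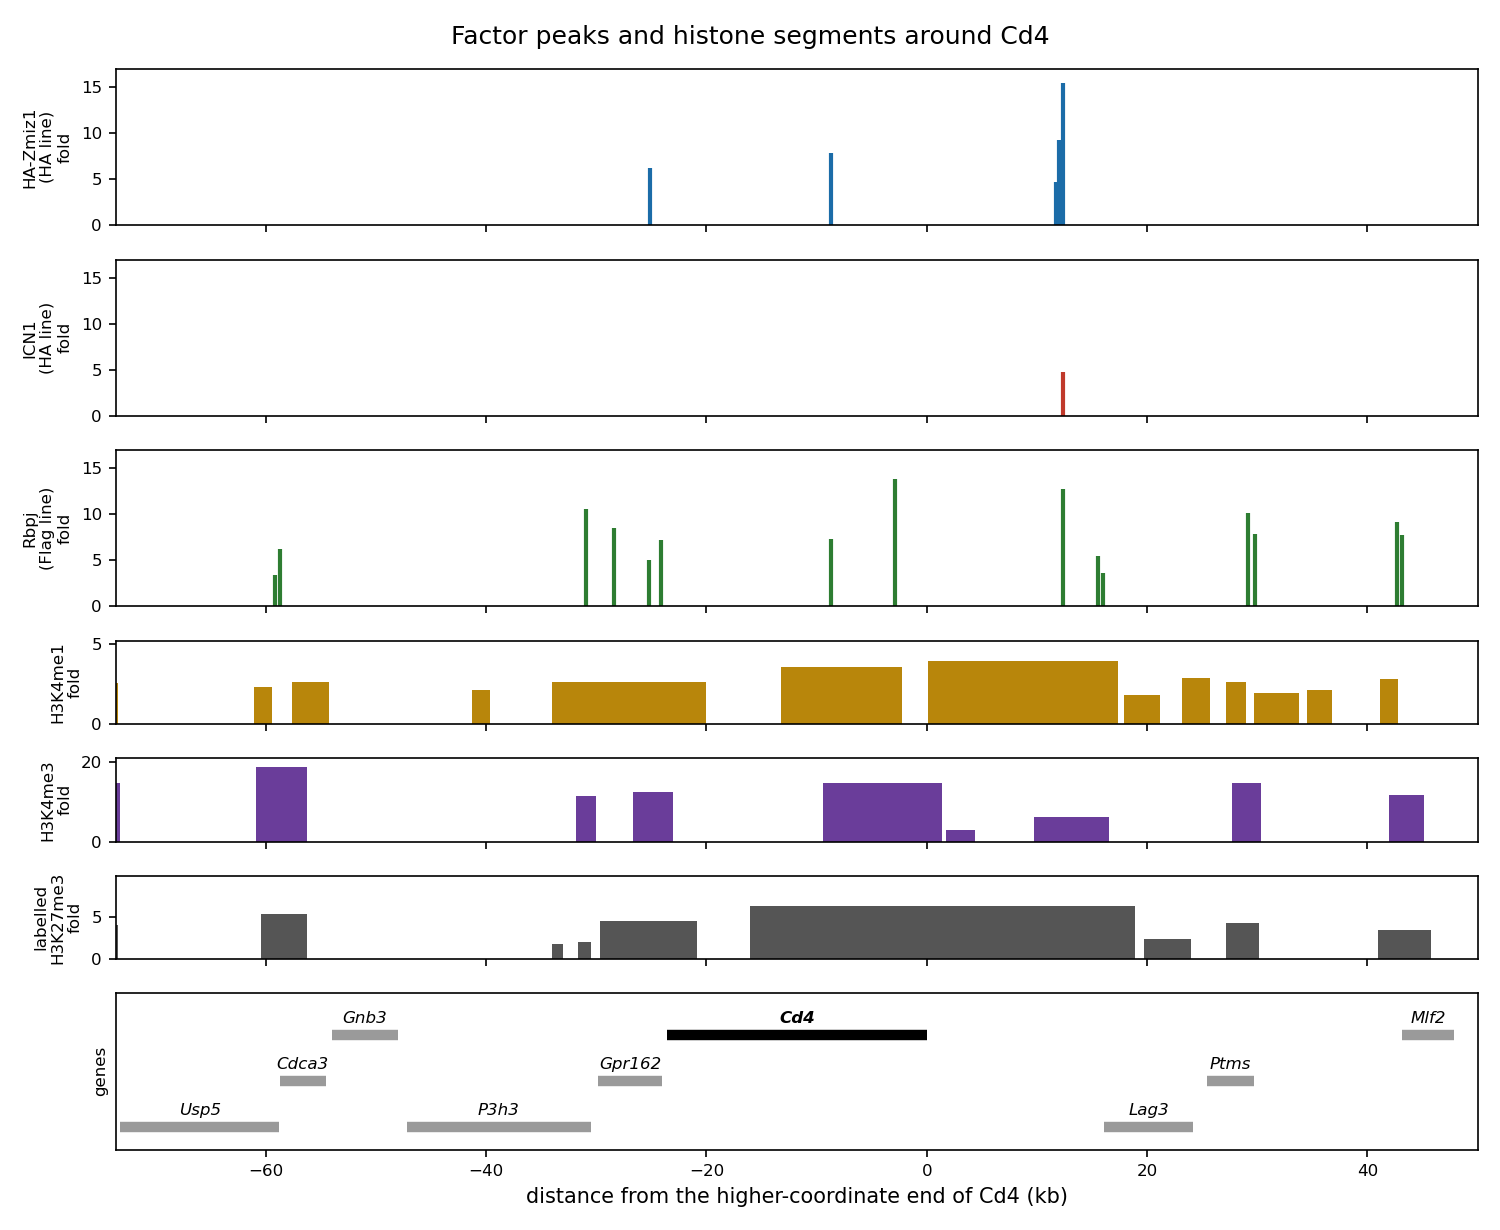
Peaks and segments around Cd4 by distance from its higher end (horizontal axis, kb). Height is the authors' fold over local input for peaks, drawn at their summits and wider than to scale, and over the control for histone segments; gene spans are at the foot. HA-Zmiz1, ICN1 and Rbpj meet at 12.4 kb, between Cd4 and Lag3.

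The Cd8 window held fewer other coding genes, Krcc1, Gm1070 and Rmnd5a, and most of its peaks were nearest to a member. Here 5 of 13 HA-Zmiz1 peaks, 6 of 18 Rbpj peaks and 0 of 1 ICN1 peaks lay nearer to another coding gene. The stretch between Cd8b1 and Cd8a held 6 HA-Zmiz1 peaks, 9 Rbpj peaks and the ICN1 peak. By summit, the Cd8a span held 0 peaks of any factor, and the Cd8b1 span 1 HA-Zmiz1 peak and 0 Rbpj peaks. By summit, factor peaks at Cd8 were thus mainly between and around the genes. The spans are short, at 5.75 kb for Cd8a and 14.7 kb for Cd8b1 in a window of 156 kb, so few summits would fall in them. The HA-Zmiz1 and Rbpj peaks that reach into Cd8a had summits 0.049 kb and 0.077 kb before its start.

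At the lower end of Cd8b1, an HA-Zmiz1 peak of fold 8.17 from 71322458 to 71322740 overlapped Rbpj peaks of fold 5.50 and 3.87. Inside the gene, an HA-Zmiz1 peak of fold 9.43 starting at 71333200 had no Rbpj peak. Past its higher end, 0.452 kb away, an HA-Zmiz1 peak of fold 10.3 from 71337844 to 71338139 met Rbpj peaks of fold 6.62 and 7.87. Cd8b1 therefore had HA-Zmiz1 at or near both ends, with Rbpj at each. Farther toward Cd8a, a site starting at 71353700 had the reverse balance, with an HA-Zmiz1 fold of 7.00 and an Rbpj fold of 10.5.

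At Cd8a, the strongest Rbpj peak of the Cd8 locus lay across the start of the gene. It ran from 71373251 to 71373482 with a fold of 11.0, a pileup of 33 and rank 1640 of 20993. HA-Zmiz1 was modest there, with a fold of 7.00 and a pileup of 14, in a peak from 71373341 to 71373428. A further shared site starting at 71371214 had an HA-Zmiz1 fold of 7.36 and an Rbpj fold of 4.15. By fold, the strongest HA-Zmiz1 and the strongest Rbpj peak near Cd8a thus stood at different places, before the gene and across its start. The Rbpj pileups of 33 (22.7 to 46.3) at the start and 31 (21.1 to 44.0) at the 3-factor site had overlapping intervals. Which of these Rbpj peaks was the stronger was not detectable at this depth.

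The Rbpj peak at the Cd8a start covered the TTCCCA printed above at 71373338 to 71373343, beginning 89 bases before the start (counted on the plus strand). The HA-Zmiz1 peak did not cover all of it. The searched letters in the Cd8a promoter window were the Rbpj core TGGGAA, the Runx core TGTGGT, the E-box CAGNTG and the Gata core AGATAA, on both strands over 300 bases. TGGGAA matched once and CAGNTG once, the latter as CAGCTG at 71373425 to 71373430, across the start, and the others did not match. TGGGAA is a short motif found in 25.6% of 32851 promoter windows, in 22.8% of the 7246 with an Rbpj peak and in 26.3% of the 25605 without one. The other shares were 16.8% for TGTGGT, 51.4% for CAGNTG and 11.2% for AGATAA. A match here is a description and not a site.

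Below Cd8b1, HA-Zmiz1 peaks of fold 6.25 and 5.11 lay in Gm1070, the second of them with Rbpj at fold 7.18, and another starting at 71307603 had an HA-Zmiz1 fold of 9.80 and an Rbpj fold of 6.01. Above Cd8a, a site starting at 71387585 had folds of 5.56 and 6.47. The weakest HA-Zmiz1 peak of the locus, of fold 3.20 beside an Rbpj fold of 9.12, lay in Rmnd5a, where the recovered local input was 7.76 times the library mean, and the part of this input in the fold was not tested.

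**Figure D4:**
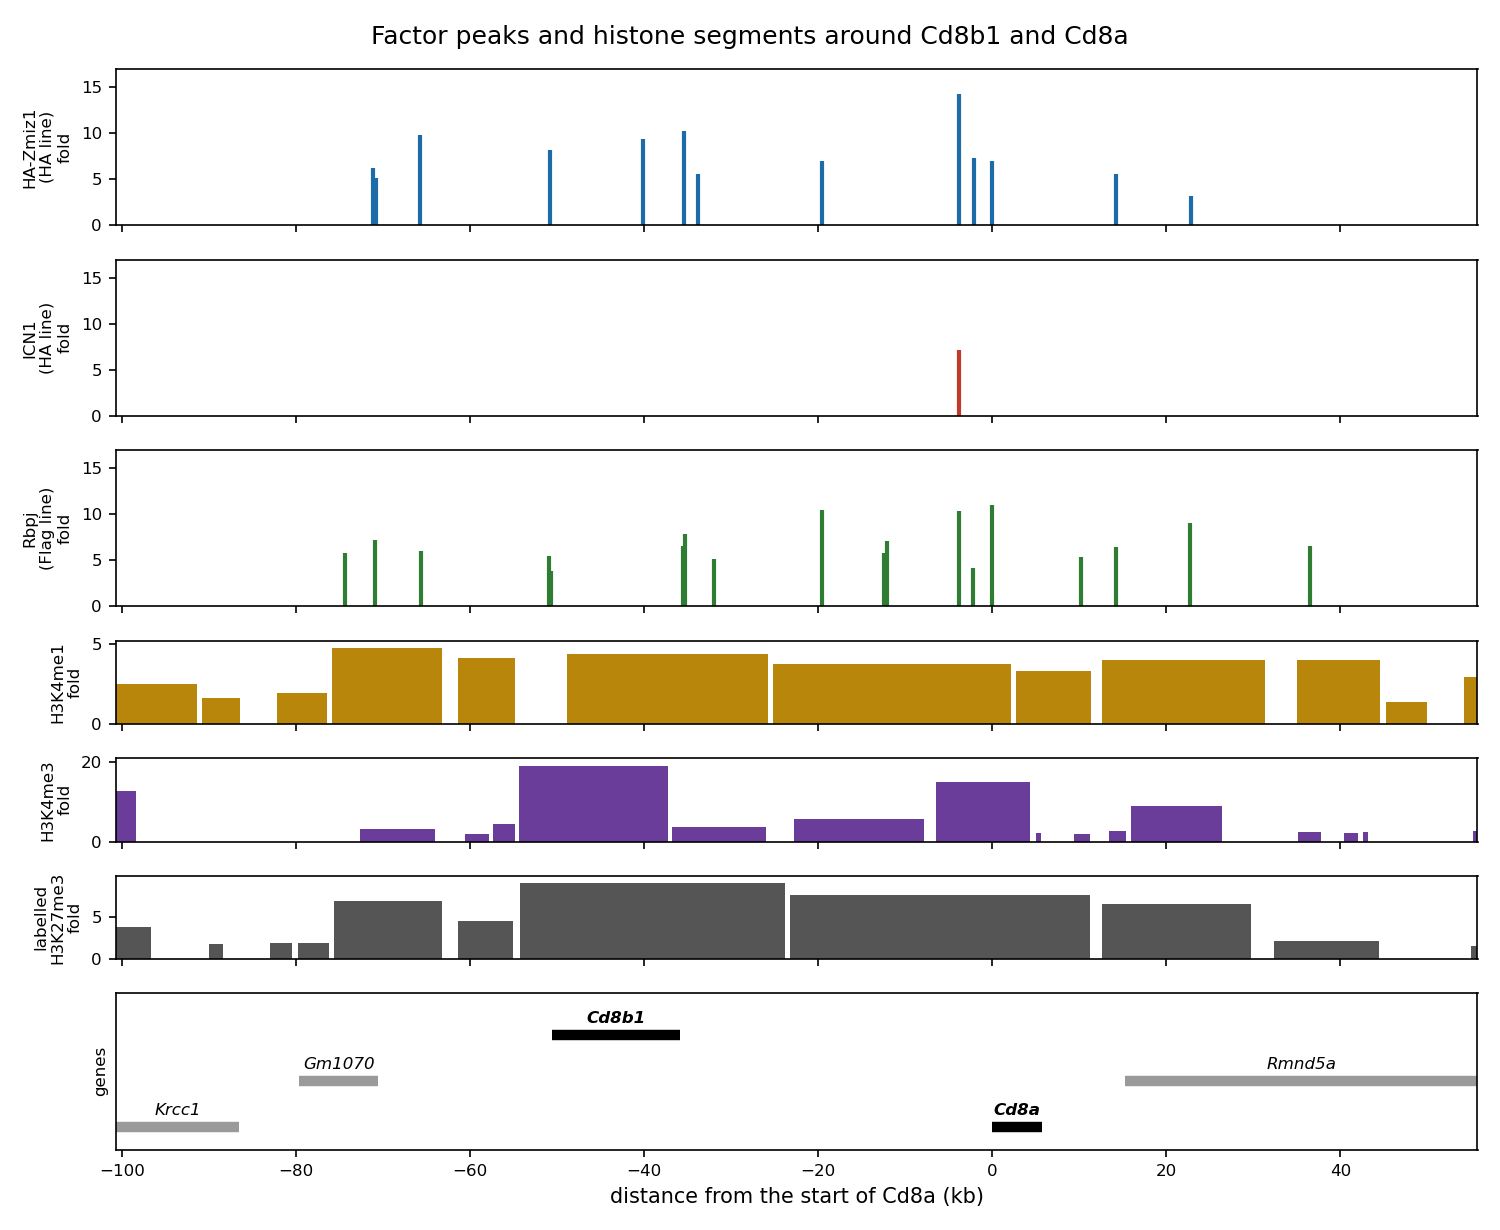
Peaks and segments around Cd8b1 and Cd8a by distance from the start of Cd8a (horizontal axis, kb). Height is the authors' fold over local input for peaks, drawn at their summits and wider than to scale, and over the control for histone segments; gene spans are at the foot. The ICN1 peak stands with the highest HA-Zmiz1 peak, 3.78 kb before Cd8a, and HA-Zmiz1 and Rbpj peaks are spread over the whole window.

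Merged by overlap, the peaks formed 17 sites at Cd4 and 19 at Cd8. At Cd4, 12 sites had Rbpj alone, 2 HA-Zmiz1 alone, 2 both and 1 all 3 factors. At Cd8, 6 had Rbpj alone, 3 HA-Zmiz1 alone, 9 both and 1 all 3. Both sites of HA-Zmiz1 alone at Cd4 were the peaks just beside the 3-factor site. At Cd8 such a site, ending at 71302314, lay close to a shared site starting at 71302424. Whether these neighbours are single stretches split by the peak calls was not tested. Read from HA-Zmiz1, 3 of 5 peaks at Cd4 and 10 of 13 at Cd8 overlapped Rbpj, (5 of 8 at Cd8 with both lists limited to a −log10 p of at least 10), beside 71.3% of the list (exact binomial 95% interval 70.1 to 72.6). Read from Rbpj, 3 of 15 peaks at Cd4 and 12 of 18 at Cd8 overlapped HA-Zmiz1, beside 16.9% of the list (16.4 to 17.4). The Cd4 share was near that of the list and the Cd8 share above it, in 1 library of each factor and without a test. Where HA-Zmiz1 and Rbpj overlapped, the 15 pairs of summits lay 14 to 185 bp apart, with a median of 61 bp.

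The histone segments, all from the Flag line, covered most of the Cd8 window and much of the Cd4 window. The Cd8 window held 12 H3K4me1 and 16 H3K4me3 segments and 11 of the library labelled H3K27me3, and the Cd4 window 13, 9 and 9. H3K4me1 covered 84.7% of the Cd8 window and 52.0% of the Cd4 window. H3K4me3 covered 57.7% and 29.4%, and the library labelled H3K27me3 80.2% and 50.4%. Among the upper 50% of segments by fold, H3K4me3 covered 35.6% of the Cd8 window, and with 100 kb on either side the library labelled H3K27me3 covered 52.8% at Cd8 and 32.6% at Cd4. The medians over the windows of all coding genes were 8.64%, 4.22% and 5.08% in the same order, so both loci stood far above them for each of these 3 libraries. The library labelled H3K27ac had 0 segments at either locus, beside a median of 3.07%, covered 7.21% of the Cd4 window with 100 kb on either side, and had its nearest segments 82.7 kb from Cd4 and 203 kb from the Cd8 genes.

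A segment within 50 kb is by itself common: 74.1% of coding genes had one for H3K4me1, 73.8% for H3K4me3, 72.0% for the library labelled H3K27me3 and 58.0% for the library labelled H3K27ac. The covered share separates the members more. A share at least as high as that of Cd8a was found at 0.0503% of coding genes for H3K4me1, 0.0228% for H3K4me3 and 0.0228% for the library labelled H3K27me3. For Cd8b1 the figures were 0.0640%, 0.0320% and 0.0503%, and for Cd4 2.11%, 1.02% and 1.18%. The Cd8 genes thus stood near the top of all coding genes and Cd4 somewhat below them. Neighbouring genes share segments, so these shares do not count independent places.

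**Figure D5:**
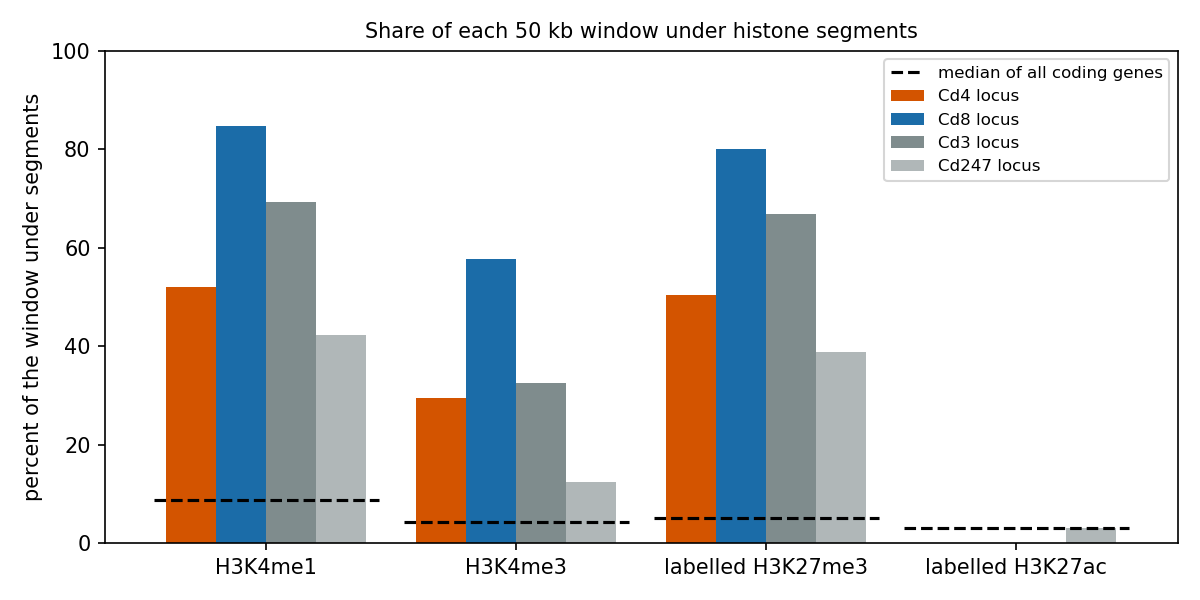
Percent of each 50 kb window covered by segments (vertical axis) in the 4 histone libraries, for the Cd4, Cd8, Cd3 and Cd247 loci; dashed lines give the median over all coding genes. The Cd8 bars are the highest for H3K4me1 (84.7%), H3K4me3 (57.7%) and the library labelled H3K27me3 (80.2%). The library labelled H3K27ac covered 0 of the Cd4, Cd8 and Cd3 windows.

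Long H3K4me3 segments lay over the members, and the Cd3 window also held a long segment, of 11.6 kb. At the higher end of Cd4 a segment of 10.8 kb, from 124878801 to 124889600, held 2909 reads, which is 269 per kb (exact Poisson 95% interval 260 to 279), at a fold of 14.7 over the control. Over Cd8b1 a segment of 17.2 kb, from 71319001 to 71336200, held 5854 reads, 340 per kb (332 to 349), at a fold of 19.0. Over the start of Cd8a a segment of 10.8 kb, from 71367001 to 71377800, held 3439 reads, 318 per kb (308 to 329), at a fold of 14.9. In reads per kb the order was Cd8b1, Cd8a, Cd4, with intervals that did not overlap and that cover counting error only. The control held 354 reads under the Cd8a segment and 303 under the Cd4 segment, and their folds over it, 14.9 and 14.7, were close. The Cd8b1 segment was among the widest 0.131% of its list and those of Cd4 and Cd8a among the widest 0.665%. By fold they stood lower, within the highest 5.63% for Cd8b1, 17.8% for Cd4 and 17.2% for Cd8a.

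The lower end of Cd4 shared a 3.6 kb H3K4me3 segment of fold 12.3 with Gpr162. The 3-factor site above Cd4 lay in a separate H3K4me3 segment of 6.8 kb, from 124898001 to 124904800, with a lower fold of 6.20. Between the Cd8 genes a 15 kb segment, from 71350601 to 71365600, had a fold of 5.76, also below those over the genes.

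The library labelled H3K27me3 formed still longer segments over the same ground. At Cd4 it gave 1 segment of 35.0 kb, from 124872201 to 124907200, at a fold of 6.35, which joined the higher part of the gene to the 3-factor site and was among the widest 0.276% of its list. At Cd8 a segment of 30.4 kb and fold 9.04 covered Cd8b1, and one of 34.4 kb and fold 7.68 covered Cd8a and the 3-factor site before it. Within the gene spans it covered 79.6% of Cd4 and 100% of Cd8a and Cd8b1, beside H3K4me3 at 42.3%, 86.6% and 97.3%.

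Some ends of the members lay outside H3K4me1. No H3K4me1 segment covered the higher end of Cd4, where segments stopped at 124886000 and began again at 124888401, or the lower end of Cd8b1, between 71318600 and 71324601. H3K4me3 was strong at both places. The Cd8a start, in contrast, lay inside an H3K4me1 segment of 27.4 kb (71348201 to 71375600, fold 3.75) as well as under H3K4me3. The other end of Cd8a had H3K4me1 and no H3K4me3 segment over it. Other long H3K4me1 segments measured 17.2 kb just above Cd4, at a fold of 3.94, and 23.0 kb over the higher part of Cd8b1, at a fold of 4.39.

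The factor peaks sat within these segments. All 18 HA-Zmiz1 peaks of the loci lay under H3K4me3 and under the library labelled H3K27me3, and 17 of 18 lay under H3K4me1, the exception being the peak at the lower end of Cd8b1. Over the HA-Zmiz1 list the shares were 93.2%, 93.6% and 82.8%. Of the Rbpj peaks, 31 of 33 lay in H3K4me3, 33 of 33 in the library labelled H3K27me3 and 27 of 33 in H3K4me1, beside 87.3%, 86.2% and 57.8% of the Rbpj list. Segments cover much of these windows, so peaks placed anywhere in them would often meet one. The library labelled H3K27ac had 0 segments at either locus, so no factor peak of the loci could lie in one. Over the lists it met 1.93% of HA-Zmiz1, 8.70% of HA-line ICN1 and 5.31% of Rbpj peaks.

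The genes of the CD3 chains, which signal for the same receptor, gave a measure of likeness. The Cd3d, Cd3e and Cd3g locus had 9 HA-Zmiz1 peaks with a highest fold of 8.86, 1 HA-line ICN1 peak of fold 6.50 and 15 Rbpj peaks with a highest fold of 15.8. The Cd247 locus had 1, 1 and 7 peaks, with highest folds of 5.60, 7.96 and 23.2. The highest HA-Zmiz1 folds at Cd4 and Cd8 were above those of both CD3 loci, and the highest Rbpj folds were below. H3K4me1 covered 69.3% of the Cd3 window and 42.2% of the Cd247 window, and H3K4me3 32.4% and 12.3%. The library labelled H3K27me3 covered 66.9% and 38.8%, and the library labelled H3K27ac 0% and 3.03%. Except for the last library, the Cd3 shares lay above those of Cd4 and below those of Cd8. The widest segments of the Cd3 window were 11.6 kb for H3K4me3 and 32.4 kb for the library labelled H3K27me3. Long segments were thus not particular to the members. The loci are single places in single libraries, and these differences carry no test.

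Among 12 genes of receptor signalling partners, all 12 had an HA-Zmiz1 peak and an Rbpj peak within 50 kb, 7 an HA-line ICN1 peak, 2 a Flag-Zmiz1 peak (Ptprc and Cd5) and 3 a 3-factor site. Over all coding genes the shares were 27.8% for HA-Zmiz1, 67.2% for Rbpj, 3.42% for HA-line ICN1, 4.06% for Flag-Zmiz1 and 2.28% for the 3-factor site, and Cd3d, Cd3e and Cd3g count in the list with shared peaks. Among the highest HA-Zmiz1 folds in this list were 13.3 at Lat, an adaptor, and 13.1 at Lck, the kinase that the co-receptors carry. The folds of 15.5 at Cd4 and 14.3 at Cd8 were slightly higher than these. The Lck window had 3 HA-Zmiz1 and 12 Rbpj peaks and no ICN1 peak.

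Among 18 genes of known regulators of the co-receptor genes and T-lineage factors, 14 had an HA-Zmiz1 peak, 18 an Rbpj peak, 4 an HA-line ICN1 peak, 0 a Flag-Zmiz1 peak and 4 a 3-factor site, beside 27.8%, 67.2%, 3.42%, 4.06% and 2.28% of all coding genes. The highest HA-Zmiz1 folds were 17.6 at Tcf7, which encodes the T-lineage factor TCF1, 16.9 at Myb, a factor of blood progenitors and thymocytes, and 12.2 at Ikzf1, which encodes Ikaros. The 4 without an HA-Zmiz1 peak, named after their values were seen, were Chd4, a remodelling ATPase, Gata3, a factor of T cell development, and the genes best known for the choice between the co-receptors, Zbtb7b, which encodes the CD4-lineage factor ThPOK, and Runx3, a factor of the CD8 lineage. Runx1, of the same family as Runx3, had 8.

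Genes whose pattern over the 9 libraries was most like that of a member were ranked by the mean difference in percentile, from the best fold for peaks and the covered share for segments. Cd8a and Cd8b1, which share most of their windows, differed by 0.00558 percentile points and from Cd4 by 1.79 and 1.78, where the median over all genes was 36.2 for Cd4. The nearest genes to Cd4 were Cd164 at 0.521 and Rpl11 at 0.533, followed by Ppil6, which shares its best peaks with Cd164, Cyba and Bcl2l15. The nearest to both Cd8 genes was Stat5a, at 0.284 for Cd8a and 0.279 for Cd8b1, followed by Srsf3, Ddit4 and Cd2. Scored instead by presence or absence of a peak, 1 of the 5 nearest genes remained for Cd4 and 0 for Cd8a and Cd8b1. The genes named here all had the members' own pattern of presence in the factor libraries. Presence of a peak therefore could not order them, and the part of ties in this change was not tested.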

How the data were processed

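Per the file headers, MACS version 2.0.10.20120913 called the factor peaks, each library set against its own line's input, at a p limit of 1e-05. It kept at most 1 tag at a position and took the local background from 1000 and 10000 bp. Reads were pooled in the HA line, per the file headers. The submitters' processing notes name Bowtie 0.12.7, MACS2 2.0.10, SICER 1.1 and the mm10 build. The authors' deposited peak tables hold, for each peak, the pileup (a coverage signal), the fold over local input (a ratio) and a −log10 p. Their deposited segment tables, in steps of 200 bp, hold read counts of the precipitation and the control, a fold (a ratio) and a p-value. Which library served as the histone control is not given in the sources used here. Per the labels' protocols, factor chromatin was fixed with DSG plus formaldehyde and histone chromatin without DSG, so their signals are not on 1 scale. The headers give tags of 52 bp and fragments of only 52 to 63 bp, which bears on pileups and widths.

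Regions were matched to RefSeq spans (GRCm38.p6, 21887 coding genes) by an overlap of at least 1 bp, with Python 3.11.15, numpy 2.4.6 and scipy 1.17.1. Local input was recovered as (pileup + 1) / fold − 1, over fragment length times tags per genome base. The overlap code was tested on simulated data. Every peak and segment of the loci was counted. Named were the coding genes of the windows, the 3 genes of each list with the highest HA-Zmiz1 fold and the 5 genes most like each member, leaving out genes within 200 kb of one. Items that the rule covers but the text does not name are not reported here. Gene names outside this rule were picked after their values were seen. Shares over all coding genes serve as background, with no test. Alternatives were windows of 25 and 100 kb, a −log10 p of at least 10, the upper 50% of segments by fold and other overlaps. The members and gene lists were chosen with earlier results of these data known.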

Additional observations from a re-analysis of the deposited data

How the results depend on the processing

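With a −log10 p of at least 10, the Cd4 locus kept 0 HA-line ICN1 peaks and 0 sites with HA-Zmiz1, ICN1 and Rbpj, and the Cd8 locus kept 8 HA-Zmiz1 peaks. With windows of 25 kb, the Cd4 locus had 9 Rbpj peaks and 6 H3K4me1, 5 H3K4me3 and 5 labelled-H3K27me3 segments, and the Cd8 locus had 6 H3K4me1 and 5 labelled-H3K27me3 segments. Windows of 100 kb brought 2 labelled-H3K27ac segments to Cd4. Among the upper 50% of segments by fold, 8 H3K4me1 segments remained at Cd4, and 5 H3K4me3 and 6 labelled-H3K27me3 segments at Cd8. These changes follow from fewer or more regions being counted. The covered share of a window moved under 18 of 24 settings, and fell in 11 of those. Over all 114 recomputed values, 75 stayed within 1.5 times the reported count or, for covered shares, within their binomial 95% interval over 200 bp steps. Some of the 75 could not have moved. Leaving out peaks with local input of 10 or more times the library mean removed none, and counts or shares of 0 could not fall. Among covered shares above 0, only that of H3K4me3 at Cd4 among the upper 50% of segments, at 27.3%, stayed within its interval. The number of coding genes with at least as many HA-Zmiz1 peaks as a member was recomputed under settings chosen after seeing the data. It ran from 138 to 449 for Cd4, from 7 to 67 for Cd8a and from 3 to 25 for Cd8b1.

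No paired analysis was possible because each target had 1 library per line and no result comes from a test across samples. Depth limits the weakest peaks, with pileups of 8 reads for HA-Zmiz1 and 11 for Rbpj and ICN1. A factor with 0 listed peaks at a locus was below the authors' p limit there, which does not show that it was absent. The libraries share inputs within a line, so raised input could enter several lists.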
